A study of Sus scrofa with 6 samples.

Results

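Mitochondria carry their own ribosome, which translates the few mRNAs of the mitochondrial genome into membrane subunits of the respiratory chain. All proteins of this ribosome are encoded in the nucleus, made in the cytosol and imported, as are nearly all other mitochondrial proteins. They enter through the translocase of the outer membrane (TOM, TOMM genes) and are sorted by translocases of the inner membrane and small chaperones of the space between the membranes (TIMM genes). Coactivators of the PGC-1 family (PPARGC1A and PPARGC1B) and transcription factors such as NRF1 drive nuclear genes for mitochondrial proteins, while a separate set of enzymes copies and transcribes the mitochondrial DNA. Fusion proteins of both membranes (MFN2 and OPA1) shape the mitochondrial network. In the lung, mitochondria are known to be plentiful in alveolar type II cells, which make surfactant.

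The genes described here were the mRNAs whose pig Ensembl symbol began with MRPL, MRPS, TIMM or TOMM, or was one of 14 named regulators of mitochondrial gene expression, DNA copying and dynamics. The rule itself uses names only, but the genes were chosen for description with earlier results of these data known. Of 14579 mRNAs in the table, 9478 had a symbol, and 68 of these were members. They comprised 43 genes of the mitochondrial ribosome (29 MRPL and 14 MRPS genes), 16 import genes (8 TOMM and 8 TIMM genes) and 9 regulators. The reference list of pig symbols held 101 such names. The other 33, among them TFAM, POLRMT, GABPA, MFN1 and DNM1L, were not analysed here, and some may stand among the 5101 rows without a symbol.

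Lung tissue was compared between a fetal and a neonatal group of Tibetan-Meishan hybrid female piglets, 3 in each and each from a different sow. Fetal piglets were taken by caesarean section on the last day before birth of a 113-day pregnancy, and neonatal piglets were sampled 2 days after birth. The samples are called Fetal1 to Fetal3 and Neonatal1 to Neonatal3 here. Values were FPKM (fragment counts scaled by transcript length and by the number of mapped reads) from ribosomal RNA-depleted libraries of whole lung, so fewer cells of a type and less RNA per cell cannot be told apart.

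The tissue label was checked against cell type markers. SFTPC, the surfactant protein made by alveolar type II cells, stood at 3171, 3450 and 3902 FPKM in the fetal and 4233, 6097 and 8790 FPKM in the neonatal samples. It had the largest rise of the 6 type II markers found, of which 5 had a higher neonatal mean and NAPSA a lower one. Genes that never passed the authors' expression cut were absent from the table. No marker could thus stand at 0 throughout, and the lack of such markers does not check the tissue. Of 8 muscle markers 4 were found, and these summed to 4.45 to 9.89 FPKM per sample. The FPKM of all mRNAs summed to 339491 to 777982 per sample, and 3.02% to 5.68% of mRNAs were listed at 0. Reads behind each value were unknown, so no counting error could be attached. A value of 0 is therefore given only as listed.

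Differences are log2 fold changes (log2(FC)), neonatal minus fetal, on log2(FPKM + 1), which understates the change of low genes. They were fitted in limma across all 14579 mRNAs, and a gene was called at a Benjamini-Hochberg adjusted p of 0.05 or less. By this rule 5.41% of all mRNAs were called higher in the neonatal group and 1.45% lower. The smallest called change was 0.69 in size and the median called change 1.32, so most calls were changes larger than those of nearly all members. Among the 68 members, TOMM40 was called higher and 0 were called lower. At an unadjusted p under 0.05, 12 members were higher and 0 lower, against 17.6% and 6.60% of all mRNAs. Mean log2 values were higher in the neonatal group in 52 of 68 members (76.5%), beside 59.9% of all mRNAs.

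**Figure D1:**
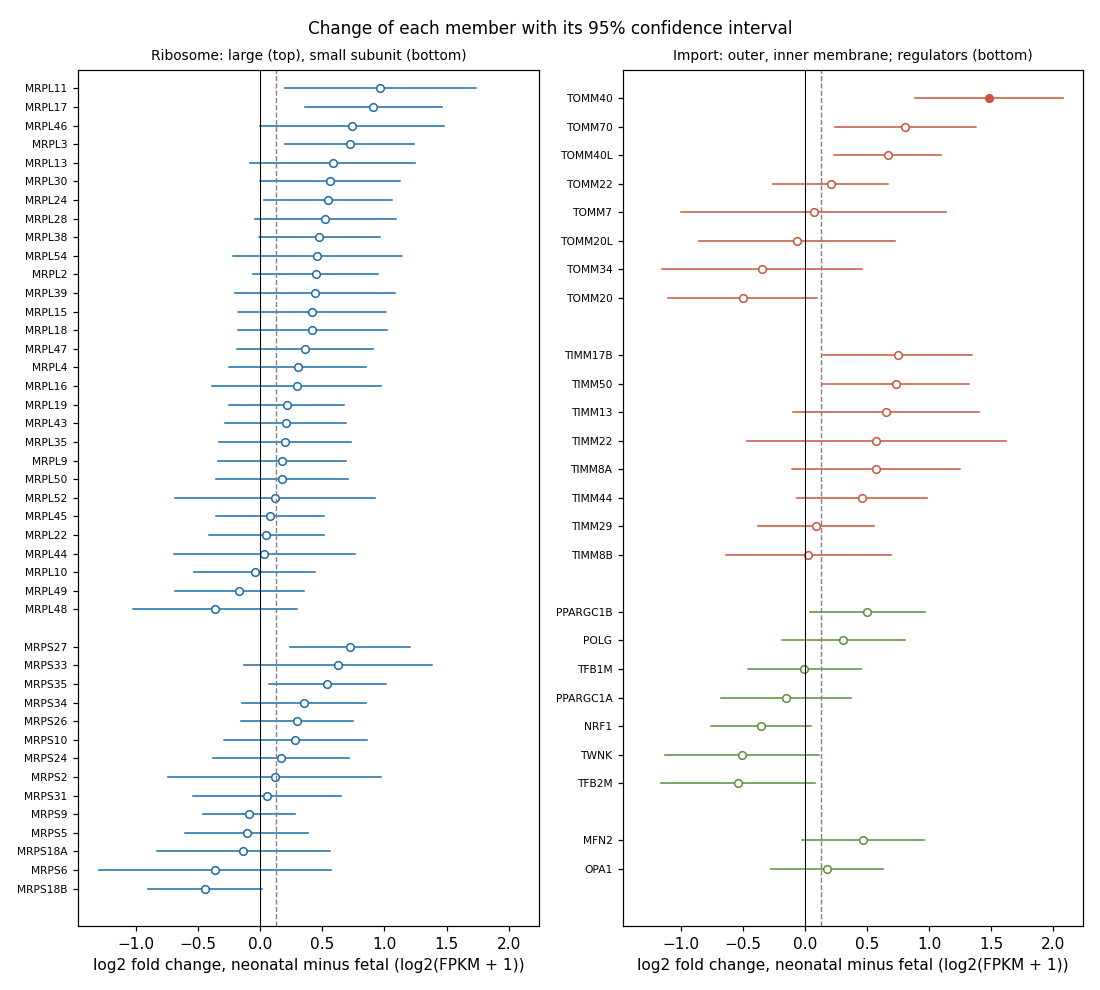
Log2 fold change of each of the 68 members, neonatal minus fetal, on log2(FPKM + 1), with its 95% confidence interval from the fit across all mRNAs (x axis) and 1 row per gene (y axis). The filled point is the called gene, TOMM40, the solid line is 0 and the dashed line is the median of all mRNAs, 0.13. Most ribosome and import genes lie right of 0 with intervals that include it, and the regulators lie on both sides.

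Most mitochondrial ribosome genes had a somewhat higher mean in the neonatal lung, but no single gene passed the test. Of 43 genes, 35 had the higher mean in the neonatal group (81.4%), with a median log2(FC) of 0.29, an interquartile range of 0.07 to 0.50 and extremes of -0.45 (MRPS18B) and 0.97 (MRPL11). The median of all mRNAs was 0.13, so the ribosome median lay 0.16 above it. In limma 0 of 43 were called in either direction, beside 5.41% of all mRNAs called higher and 1.45% lower. At an unadjusted p under 0.05, 6 (13.95%) were higher and 0 lower, beside 17.6% and 6.60% of all mRNAs. The 95% interval of the change included 0 in 37 genes and ended below 1 (a doubling of FPKM + 1) in 28. With intervals reaching a median of 0.55 to either side, changes as small as most of those measured were not detectable with 3 piglets per group.

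Scaling mattered for how many of these genes stood higher. Median-of-ratios scaling of the FPKM lowered the median of all mRNAs from 0.13 to -0.0090 and that of the ribosome genes to 0.12, with 28 of 43 higher. Quantile normalization gave -0.038 and 0.068, with 27 of 43 higher. The ribosome median stayed 0.13 and 0.11 above that of all mRNAs under these scalings.

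MRPL11, the counterpart of a bacterial protein at the base of the ribosomal stalk, had the highest log2(FC) of the class. It measured 8.34, 6.13 and 7.49 FPKM in the fetal and 14.6, 25.02 and 9.41 FPKM in the neonatal samples. The groups did not overlap, but Neonatal3 came close to the fetal values and Neonatal2 stood far above them, and the log2(FC) of 0.97 (SE 0.33) had an adjusted p of 0.131.

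MRPL17, the counterpart of bacterial L17 in the large subunit, came nearest to the threshold. Its values were 16.0, 11.96 and 15.7 FPKM in the fetal group and 20.7, 32.6 and 32.6 FPKM in the neonatal group, which did not overlap. The log2(FC) was 0.91 (SE 0.23) with an adjusted p of 0.0641.

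MRPS27, a small-subunit protein with no bacterial counterpart, was next to it. The fetal values of 8.99, 7.22 and 7.78 FPKM lay below the neonatal values of 10.7, 15.9 and 15.4 FPKM, with a log2(FC) of 0.72 (SE 0.21, adjusted p = 0.0854). MRPL3, a core protein of the large subunit, read 7.55, 5.06 and 4.20 FPKM against 9.42, 9.51 and 10.0 FPKM. Here the neonatal samples lay close together and the fetal samples were spread (log2(FC) 0.72, adjusted p = 0.102).

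Groups of the ribosome genes that did not overlap were counted beside those of the whole table. In 9 of 43 genes (20.9%) each neonatal value lay above each fetal value, beside 20.9% of all mRNAs, and in 1 of 43 it was the reverse, beside 9.64%. Besides the 4 genes above, the 9 were MRPS35 (log2(FC) 0.54), MRPL24 (0.54), MRPL28 (0.52), MRPL38 (0.48) and MRPS34 (0.35), with adjusted p from 0.159 to 0.349.

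MRPS18B was the gene with the reverse order and the lowest log2(FC) of the class. It read 5.15, 5.95 and 5.53 FPKM in the fetal and 3.27, 3.44 and 4.83 FPKM in the neonatal samples, a log2(FC) of -0.45 (SE 0.20, adjusted p = 0.220). MRPS18A, its paralog, had a log2(FC) of -0.14 with an adjusted p of 0.810, and of 0.17 without Neonatal1.

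By symbol, the large subunit had the higher median. Among 29 MRPL genes 26 had a higher neonatal mean, with a median log2(FC) of 0.36, and among 14 MRPS genes 9 did, with a median of 0.14. Non-overlap in the upward direction occurred in 6 of 29 (20.7%) and 3 of 14 (21.4%), beside 20.9% of all mRNAs. The difference between the subunits was not tested. The split follows the names, and MRPS18A is known as a protein of the large subunit in spite of its symbol.

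Levels of the ribosome genes varied far more between genes than between the groups. In the fetal group mean FPKM, a measure per transcript length, ran from 1.31 for MRPL54 to 110 for MRPL22, which lines the exit tunnel of the large subunit, a ratio of 84.4. Of 43 genes, 31 lay between 5 and 30 FPKM, 8 below and 4 above, although nearly every protein is known to be present once per ribosome. The order of the genes was nearly kept (Spearman's rho between fetal and neonatal means 0.947 across the 43 genes, which share the same libraries).

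MRPL22 measured 121, 98.3 and 112 FPKM before birth and 111, 104 and 127 FPKM after it. The log2(FC) was 0.047 (SE 0.20) with an interval of -0.42 to 0.51, and it was below 0 under both other scalings. MRPL54, at the other end, read 1.98, 0.608 and 1.34 FPKM against 1.92, 1.54 and 2.92 FPKM (log2(FC) 0.46, adjusted p = 0.376). The median level over the class was 10.22 FPKM in the fetal and 12.9 FPKM in the neonatal group, and the median coefficient of variation between piglets was 18.4% and 22.2%.

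**Figure D2:**
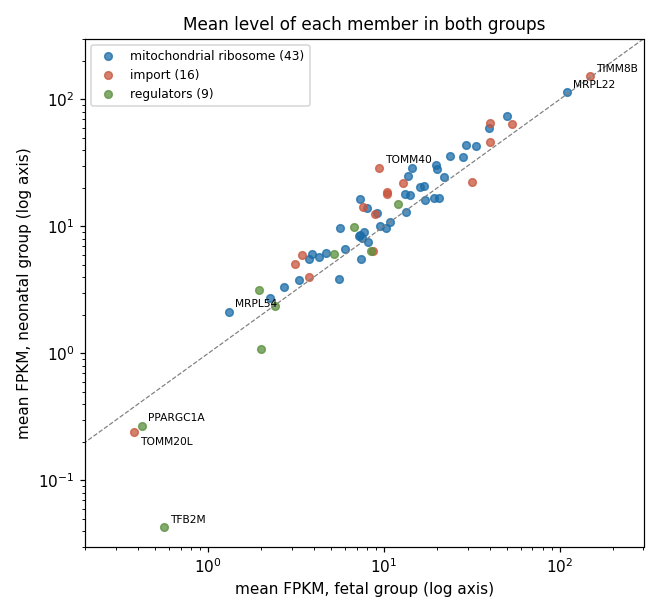
Mean FPKM of each member in the fetal (x axis) and neonatal group (y axis), both on log axes, coloured by class, with the line of equal means dashed. Genes span from 0.380 FPKM (TOMM20L) to 149 FPKM (TIMM8B) in the fetal group while nearly all stay close to the line, with TOMM40 above it and TFB2M below it.

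The import genes held the called member. Of 16 genes, 13 had a higher neonatal mean (81.3%), with a median log2(FC) of 0.51, which lay 0.39 above that of all mRNAs. Without Neonatal3 the median was 0.26, which lay 0.17 above that of all mRNAs, and without any 1 sample it ranged from 0.26 to 0.64. The median of all 6 samples was 0.35 under median-of-ratios scaling and 0.31 under quantile normalization, with 10 and 9 of 16 genes higher. Unadjusted p was under 0.05 for 5 genes, beside 17.6% of all mRNAs in this direction, and the groups did not overlap in 4 (25%), beside 20.9%, in both cases with the neonatal group higher.

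TOMM40 forms the channel through which precursor proteins cross the outer membrane. It measured 9.51, 10.1 and 8.52 FPKM before birth and 20.9, 25.5 and 40.4 FPKM after it. The lowest neonatal value was thus above the highest fetal value by more than the whole fetal range. The mean rose from 9.38 ± 0.797 to 28.9 ± 10.19 FPKM (SD, n = 3), 3.09-fold, with a log2(FC) of 1.48 (SE 0.25, 95% interval 0.88 to 2.07, adjusted p = 0.0188). Leaving out Fetal1, Fetal2, Fetal3 or Neonatal2 ended the call, with adjusted p from 0.0745 to 0.0877, while the log2(FC) over all 6 such fits stayed between 1.22 and 1.68. Without Neonatal1 or Neonatal3 the gene was still called (adjusted p = 0.0279 and 0.0442).

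Its paralog TOMM40L read 3.44, 2.85 and 3.97 FPKM before and 5.70, 6.33 and 5.93 FPKM after birth. The groups did not overlap and were tight, but the log2(FC) of 0.67 (SE 0.18) missed the threshold with an adjusted p of 0.0780. TOMM70, a receptor for precursors delivered by chaperones, read 8.62, 8.30 and 6.02 FPKM against 10.3, 17.6 and 15.0 FPKM. These groups did not overlap either (log2(FC) 0.81, SE 0.24, adjusted p = 0.0974).

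TOMM20, the receptor for precursors with a cleavable targeting sequence, had the lowest log2(FC) of the class. It measured 39.3, 27.5 and 28.004 FPKM in the fetal and 16.7, 20.6 and 29.7 FPKM in the neonatal samples. Neonatal3 lay inside the fetal range, and the log2(FC) was -0.50 (SE 0.26, adjusted p = 0.278). Under quantile normalization it was -0.78 and passed the threshold (adjusted p = 0.0498). Estimates for the TOM complex thus lay on both sides of 0. TOMM22, a central receptor, had a log2(FC) of 0.21, which was -0.13 under quantile normalization. TOMM7, a small subunit, had a log2(FC) of 0.07, below 0 under both other scalings, with neonatal values from 27.4 to 107 FPKM. TOMM34, a chaperone partner in the cytosol, had a log2(FC) of -0.35 (adjusted p 0.554, 0.941 and 0.570 in this order).

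TOMM20L, a paralog of TOMM20, was listed at 0 FPKM in Fetal1 and Fetal3 and at 1.14 FPKM in Fetal2. The neonatal values were 0.443, 0.130 and 0.154 FPKM. No direction could be read from these values, and the log2(FC) of -0.06 turned to 0.45 with a pseudocount of 0.1.

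The 8 TIMM genes all had a higher neonatal mean, except that TIMM8B and TIMM29 lay below 0 under both other scalings, and their median log2(FC) was 0.57. In limma 0 of them were called, and 2 (25%) were higher at an unadjusted p under 0.05, beside 17.6% of all mRNAs. The 8 TOMM genes had a median of 0.14 with 5 higher. TIMM17B, a subunit of the presequence translocase of the inner membrane, read 12.6, 8.81 and 9.98 FPKM before and 12.8, 19.1 and 23.8 FPKM after birth. The groups were separate by a narrow margin between Fetal1 and Neonatal1 (log2(FC) 0.75, SE 0.26, adjusted p = 0.134). TIMM50, the receptor of the same translocase, read 16.0, 10.1 and 12.3 FPKM against 15.9, 26.8 and 23.4 FPKM, with Fetal1 just above Neonatal1 (log2(FC) 0.73, adjusted p = 0.136).

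The intervals of the other TIMM genes included 0. TIMM13, a small chaperone of the intermembrane space, had a log2(FC) of 0.65 (95% interval -0.10 to 1.40), and TIMM8A, its partner, one of 0.57 (-0.11 to 1.25). TIMM22, the channel for carrier proteins, had 0.57 with the widest interval of the 8 (-0.47 to 1.62), from neonatal values of 7.37, 17.8 and 28.7 FPKM. TIMM44, which holds the import motor at the channel, had 0.46, and TIMM29, a partner of TIMM22, had 0.09.

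TIMM8B, another small chaperone, had the highest level of all 68 members. It read 173, 110 and 165 FPKM before and 114, 157 and 187 FPKM after birth, so the groups overlapped throughout. The log2(FC) was 0.028 (SE 0.28), and below 0 under both other scalings.

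**Figure D3:**
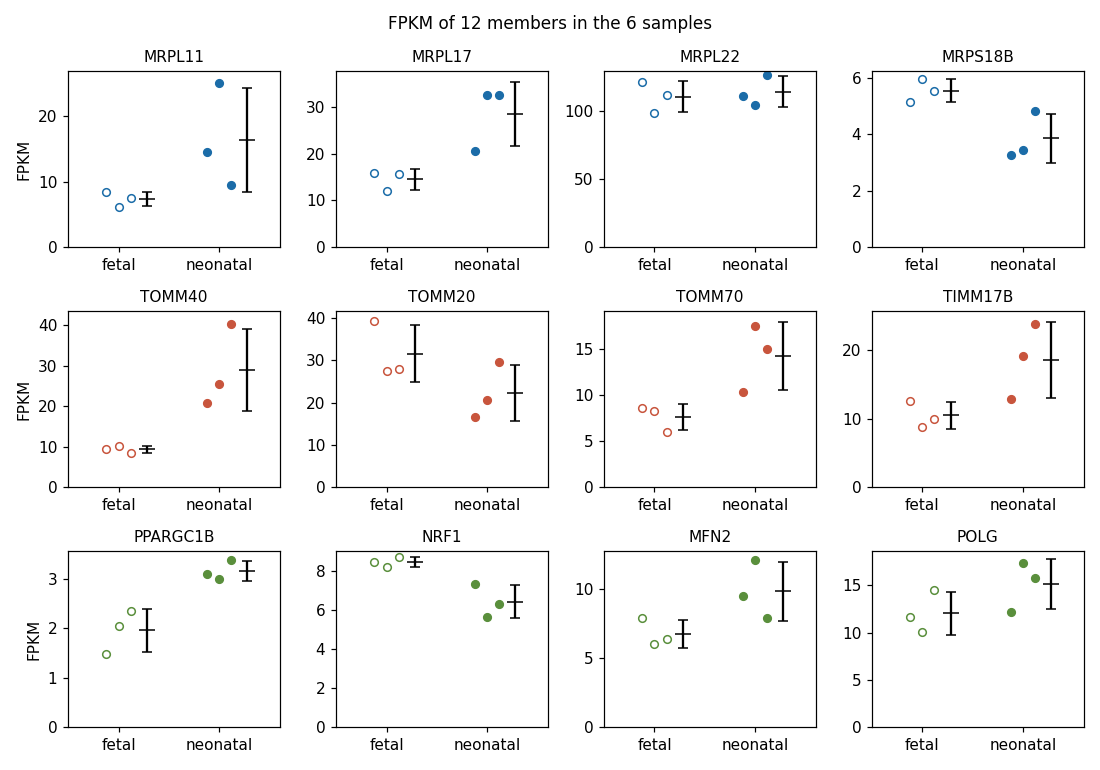
FPKM (y axis, from 0) of 12 members in the 3 fetal samples (open points) and 3 neonatal samples (filled points), in the order of sample number, with the group mean and SD beside them in black. TOMM40, MRPL17 and PPARGC1B show separate groups with higher neonatal values, MRPS18B and NRF1 show separate groups with lower ones, and MRPL22 shows groups that overlap.

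The regulators showed no common direction. Of 9 genes, 4 had a higher and 5 a lower neonatal mean, with a median log2(FC) of -0.0057, and limma called 0 in either direction. At an unadjusted p under 0.05, 1 gene (PPARGC1B, 11.1%) was higher, beside 17.6% of all mRNAs. Each 95% interval ended below 1, so an upward doubling of FPKM + 1 lay outside the interval for all 9 genes. At levels well under 1 FPKM this scale hardly moves, which concerns PPARGC1A and TFB2M.

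PPARGC1A, the best known coactivator of mitochondrial biogenesis, had the lowest fetal mean of the class, while TFB2M had the lowest neonatal mean. PPARGC1A read 0.638, 0.444 and 0.178 FPKM before and 0.445, 0.193 and 0.170 FPKM after birth. The groups overlapped, with a log2(FC) of -0.16 (SE 0.22, adjusted p = 0.704). PPARGC1B, its relative, read 1.49, 2.04 and 2.35 FPKM before and 3.10, 2.995 and 3.37 FPKM after birth. Here the groups did not overlap and the mean went from 1.96 ± 0.437 to 3.16 ± 0.194 FPKM (SD, n = 3), a log2(FC) of 0.50 (SE 0.20, 95% interval 0.04 to 0.96) with an adjusted p of 0.179.

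NRF1, a transcription factor for nuclear genes of the respiratory chain, was the regulator with separate groups in the other direction. Fetal values of 8.46, 8.19 and 8.68 FPKM stood above neonatal values of 7.30, 5.63 and 6.32 FPKM. The log2(FC) was -0.35 (SE 0.17) with an adjusted p of 0.254, and it was negative under every alternative, from -0.51 to -0.28.

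None of the 4 enzymes and factors that act on the mitochondrial DNA and RNA passed the test. POLG, the catalytic subunit of the mitochondrial DNA polymerase, had the highest level of the class at 11.6, 10.0 and 14.5 FPKM before and 12.2, 17.4 and 15.8 FPKM after birth (log2(FC) 0.31, adjusted p = 0.416). TWNK, the helicase that works ahead of it, read 1.17, 2.22 and 2.57 FPKM against 1.54, 0.951 and 0.765 FPKM (log2(FC) -0.51, SE 0.27, adjusted p = 0.289). The values of this pair overlapped between the groups.

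TFB2M, which helps the mitochondrial RNA polymerase to start, read 0.828, 0.0667 and 0.788 FPKM before birth. After birth it was listed at 0 in Neonatal1 and stood at 0.0985 and 0.0295 FPKM in Neonatal2 and Neonatal3. Fetal2 lay within the neonatal range, and the log2(FC) was -0.54 (SE 0.27, adjusted p = 0.259). TFB1M, a methyltransferase for the small ribosomal RNA, read 2.93, 2.06 and 2.24 FPKM against 2.33, 2.21 and 2.61 FPKM, a log2(FC) of -0.0057 with an interval of -0.46 to 0.45.

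Both fusion genes had higher neonatal means without passing the test. MFN2, of the outer membrane, read 7.94, 6.05 and 6.37 FPKM before and 9.51, 12.1 and 7.92 FPKM after birth. The groups overlapped only in that Fetal1 lay just above Neonatal3 (log2(FC) 0.47, SE 0.21, adjusted p = 0.225). OPA1, of the inner membrane, read 5.35, 5.67 and 4.62 FPKM against 5.81, 7.21 and 5.15 FPKM, with overlapping groups (log2(FC) 0.18, adjusted p = 0.607).

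The neonatal samples were not alike in the ribosome and import genes. For each gene the deviation of log2(FPKM + 1) from its fetal mean was taken, and the median over the class was read per sample. For the ribosome genes it was 0.08, -0.16 and 0.03 in Fetal1 to Fetal3, and 0.08, 0.31 and 0.48 in Neonatal1 to Neonatal3. Neonatal1 thus stood level with Fetal1, and the higher values came from Neonatal2 and Neonatal3. Above their fetal mean were 26, 32 and 38 of the 43 genes in the 3 neonatal samples.

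Import genes also had their lowest neonatal median in Neonatal1, with a larger gap to the other 2. Their medians were 0.17, -0.19 and 0.02 in the fetal and 0.09, 0.68 and 0.65 in the neonatal samples, where 10, 13 and 13 of 16 genes lay above their fetal mean. Regulators did not show it, with 0.03, -0.08 and -0.01 in the neonatal samples. All mRNAs gave 0.05, 0.13 and 0.19, so on this scale an order of the same kind, with smaller steps, was present across the whole table. After median-of-ratios scaling the neonatal medians were 0.01, 0.15 and 0.21 for the ribosome and 0.03, 0.52 and 0.41 for import genes. For all mRNAs they were then 0, -0.010 and -0.014.

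**Figure D4:**
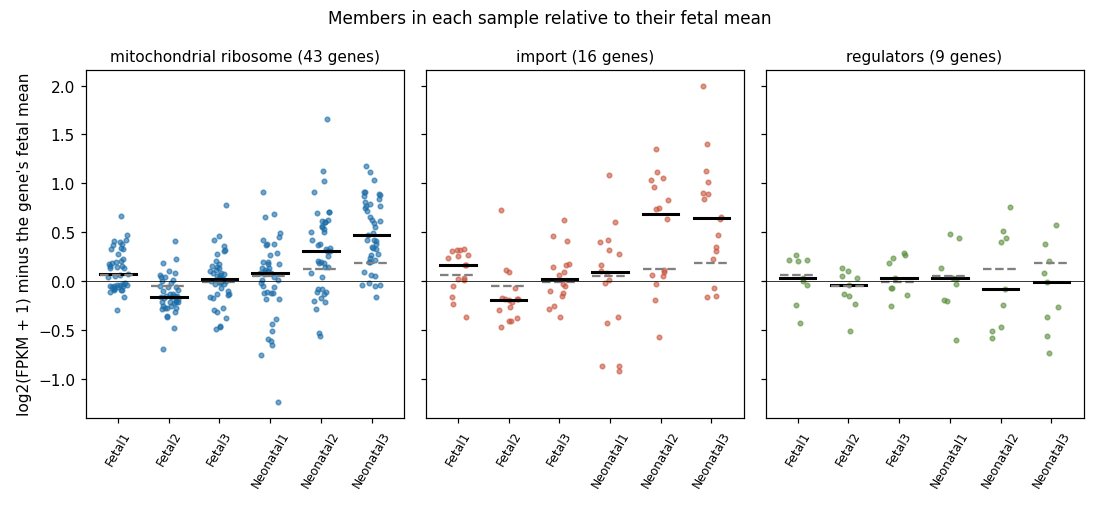
Deviation of log2(FPKM + 1) from the gene's fetal mean (y axis) in each sample (x axis), 1 point per gene, with the median of the class as a black bar and that of all mRNAs as a dashed grey bar. In the ribosome and import panels Neonatal1 sits at the level of the fetal samples, at 0.08 and 0.09, while Neonatal2 and Neonatal3 sit higher, and the regulators stay near 0 in all samples.

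Counted gene by gene, Neonatal1 held the lowest of the 3 neonatal values in 30 of 43 ribosome genes (69.8%), in 13 of 16 import genes (81.3%) and in 2 of 9 regulators. Among all mRNAs this was so in 46.6%. By subunit it was the lowest in 18 of 29 MRPL and in 12 of 14 MRPS genes. On the fetal side Fetal2 was lowest in 26 of 43 ribosome and 11 of 16 import genes. TOMM20 and MRPS18B, which had lower means after birth, were also lowest in Neonatal1.

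Leaving out Neonatal1 necessarily raises the log2(FC) of each gene in which it was the lowest neonatal sample. The calls of that fit are therefore no separate evidence of a rise. Without Neonatal1, 3 of 43 ribosome genes were called higher and 0 lower in limma, beside 944 of 14579 mRNAs called in either direction. The median log2(FC) of the ribosome genes was 0.42 with 38 of 43 higher, beside a median of 0.16 for all mRNAs. The called ribosome genes were MRPL17 (log2(FC) 1.12, adjusted p = 0.0354), MRPL46 (1.10, adjusted p = 0.0351) and MRPS27 (0.89, adjusted p = 0.0449). MRPL46, a large-subunit protein with no bacterial counterpart, read 13.2, 12.1 and 15.8 FPKM before birth and 13.8, 28.8 and 32.0 FPKM after it. With all 6 samples its log2(FC) was 0.74 (SE 0.32, adjusted p = 0.206), and the groups overlapped through Neonatal1. All mRNAs gave 944 calls without Neonatal1 and 1001 with it.

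Markers of other cell types also differed between these samples. Among all mRNAs 59.9% had a higher neonatal mean, 5.41% were called higher and 1.45% lower, and 17.6% were higher and 6.60% lower at an unadjusted p under 0.05. Of 7 macrophage markers 6 were found, all 6 with a higher neonatal mean and 0 called (limma), 4 of them with an unadjusted p under 0.05. Their summed level was 144 to 403 FPKM in the fetal and 306 to 791 FPKM in the neonatal samples. The median deviation was 0.39, 1.14 and 1.57 in Neonatal1 to Neonatal3, the same order as for the ribosome genes, and 0.59 in Fetal1. On this scale the neutrophil, mesenchymal, lymphocyte and both alveolar lists and all mRNAs had this order too. The type II list had the reverse order under median-of-ratios scaling (0.24, 0.21 and 0.17) and quantile normalization (0.16, -0.17 and -0.24). The mesenchymal list reversed under quantile normalization (0.12, 0.05 and -0.01). All mRNAs lost the order under both other scalings, and the neutrophil, lymphocyte and type I lists kept it. The airway, endothelial, erythroid and muscle lists did not. All 11 cycling genes found were called higher, with summed levels of 14.7 to 19.0 FPKM and 134.7 to 185.7 FPKM, but their medians of 2.49, 2.46 and 2.62 hardly differed between the neonatal samples. The 3 neutrophil markers found summed to 30.3 to 40.1 and 190.7 to 292.8 FPKM, with 1 called higher, and the 5 mesenchymal markers to 1070.4 to 1431.9 and 1900.9 to 2769.1 FPKM, with 2 called higher. Alveolar type II markers were higher in 5 of 6 genes, type I in 3 of 4 and lymphocyte markers in 2 of 5, with 0 called in each. Of 4 muscle markers 2 were lower, with TNNT2 called lower in limma (log2(FC) -1.34, adjusted p = 0.0125). The airway, endothelial and erythroid lists had mostly lower neonatal means, with 0 called in limma. At an unadjusted p under 0.05, 0 (airway), 1 (endothelial) and 0 (erythroid) genes were lower. For airway cells 4 of 5 were lower, with sums of 2345 to 6933 and 942 to 2954 FPKM, for endothelial cells 2 of 3 (181 to 211 and 174 to 193 FPKM), and for erythroid cells 4 of 6 (1227 to 2677 and 895 to 1461 FPKM). The part of these cells in the values of the mitochondrial genes was not tested.

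The mitochondrially encoded mRNAs, which this ribosome translates, had another order of samples. Of 13 genes 11 (84.6%) had a higher neonatal mean, beside 59.9% of all mRNAs, with a median log2(FC) of 0.81 and 0 called in limma. At an unadjusted p under 0.05, 4 (30.8%) were higher, beside 17.6%. The study's own test, which differs from this fit, did report some of these genes as raised after birth, COX3 and ND1 among them. Their median deviation was 1.41 in Neonatal1, 0.26 in Neonatal2 and 0.92 in Neonatal3. These values were 1.34, 0.08 and 0.65 under median-of-ratios scaling and 1.18, -0.12 and -0.14 under quantile normalization, so Neonatal1 stood highest on each scale while the other 2 lay below the fetal mean on the last. Neonatal1 was the highest neonatal sample in 8 of 13 and the lowest in 0, whereas it was mostly the lowest in the ribosome genes.

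Nuclear genes for respiratory chain subunits resembled the ribosome genes in their order of samples, with medians of 0.02, 0.51 and 0.83 in the neonatal samples (0.12 in Neonatal2, 0.28 in Neonatal3 and -0.09 in Neonatal1 under quantile normalization). Of 42 such genes 39 (92.9%) had a higher neonatal mean, beside 59.9% of all mRNAs, with a median log2(FC) of 0.49. Of these genes 1 (2.38%) was called higher, beside 5.41%. Genes for proteins of the cytosolic ribosome were taken only where found by symbol (24 RPL and RPS genes). They had a median log2(FC) of -0.20, with 19 lower and 1 called lower, beside 1.45% of all mRNAs called lower. Their neonatal medians were -0.59, -0.16 and 0.16. Under median-of-ratios scaling these were -0.67, -0.34 and -0.11 and under quantile normalization -0.81, -0.63 and -0.80, so Neonatal3 changed sign. These groups were picked for comparison with the values already known, and differences between them were not tested.

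**Figure D5:**
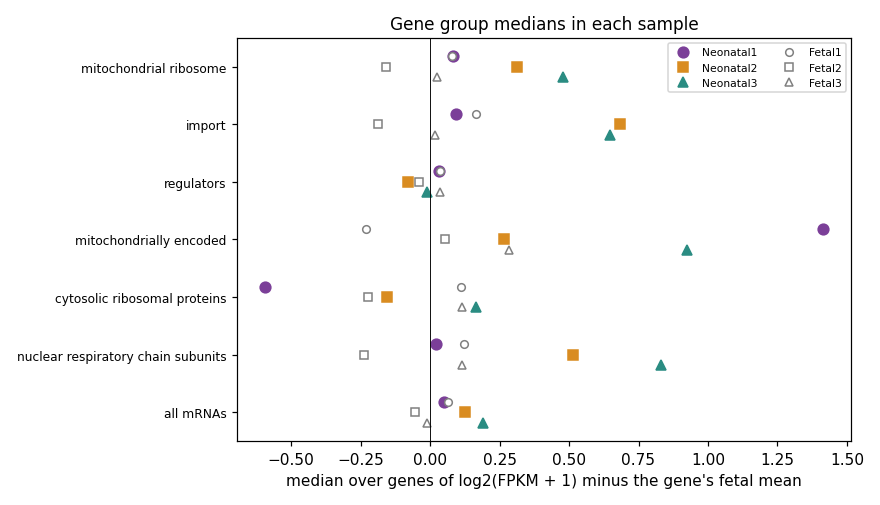
Median over the genes of a group of log2(FPKM + 1) minus the gene's fetal mean (x axis) in each of the 6 samples, for 7 groups of genes (y axis), with neonatal samples as filled and fetal samples as open symbols. Neonatal1 is lowest of the neonatal samples for the mitochondrial ribosome (0.08), import (0.09), nuclear respiratory chain (0.02) and cytosolic ribosomal genes (-0.59) and for all mRNAs (0.05), and highest for the mitochondrially encoded genes (1.41).

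As a share of the summed FPKM, the ribosome genes went the other way. Their sum was 743, 612 and 685 FPKM in the fetal and 707, 871 and 1001 FPKM in the neonatal samples. The total over all mRNAs was higher by more, so the share was 0.167% ± 0.0188 in the fetal and 0.139% ± 0.00890 in the neonatal group (SD, n = 3), with ranges of 0.145% to 0.180% and 0.129% to 0.144%. For import genes the share was 0.0958% ± 0.00999 and 0.0772% ± 0.00809. A lower neonatal share was also seen for the regulators (0.00977% and 0.00737%) and the cytosolic ribosomal genes (3.34% and 1.94%). The mean neonatal share was higher for nuclear respiratory chain subunits (1.09% ± 0.0536 and 1.13% ± 0.220), but Neonatal1 at 0.876% lay below all fetal samples. For mitochondrially encoded genes it was also higher (1.84% ± 0.185 and 3.38% ± 1.90), with 5.58%, 2.32% and 2.24% in Neonatal1 to Neonatal3. A sum gives more weight to high genes such as MRPL22 and TIMM8B, while the median log2(FC) weighs every gene equally. The part of the high genes in the lower share was not tested.

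Partner genes were counted from lists written out from known function. The first list held 28 genes that work with the mitochondrial ribosome in translation (tRNA synthetases, initiation, elongation and release factors). Of these, 19 (67.9%) had a higher and 9 a lower neonatal mean, beside 59.9% of all mRNAs higher. The median log2(FC) was 0.12, beside 0.13 for all mRNAs, and 1 gene was called higher (3.57%, beside 5.41%). That gene was MTRFR, which rescues stalled mitochondrial ribosomes. It read 4.73, 3.50 and 2.48 FPKM before and 8.09, 13.2 and 14.7 FPKM after birth, without overlap. The log2(FC) was 1.502 (SE 0.28, adjusted p = 0.0250), but leaving out any sample other than Neonatal1 ended the call (adjusted p from 0.0607 to 0.118 for these 5).

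Of 16 genes for assembly of the mitochondrial ribosome, TFB1M among them, 9 (56.3%) were higher and 7 lower, beside 59.9% of all mRNAs higher. The median was 0.11 and 0 were called in limma. At an unadjusted p under 0.05 there were also 0, beside 17.6% of all mRNAs higher and 6.60% lower. Of 15 further import genes (channel partners, the import motor and peptidases), 12 (80%) were higher and 3 lower, beside the same 59.9%. The median was 0.32 and 0 were called. At an unadjusted p under 0.05, 1 (6.67%) was higher, beside 17.6%.

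Of 20 partners in biogenesis and mitochondrial DNA maintenance, 11 (55%) were higher and 9 lower, with a median of 0.05, beside 59.9% and 0.13 for all mRNAs. SIRT3, the main deacetylase of the mitochondrial matrix, was called lower, as were 1.45% of all mRNAs. It read 7.19, 6.77 and 5.22 FPKM before and 3.32, 3.28 and 2.33 FPKM after birth, without overlap. The log2(FC) of -0.90 (SE 0.21, adjusted p = 0.0469) lay just past the threshold, and without any 1 of the 6 samples it was not called (adjusted p from 0.0681 to 0.183).

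Of 12 partners in mitochondrial dynamics and mitophagy, 8 (66.7%) were higher and 4 lower, beside 59.9% of all mRNAs higher. The median was 0.40, and 1 gene (8.33%) was called higher, beside 5.41%. MTFR2, a mitochondrial fission regulator, was called higher with a log2(FC) of 2.21 (SE 0.22, adjusted p = 0.00340). It read 0.348 and 0.333 FPKM in Fetal1 and Fetal2, was listed at 0 in Fetal3, and stood at 5.37, 4.27 and 4.32 FPKM after birth. The call held in all fits that left out 1 sample (adjusted p from 0.0170 to 0.0274).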

How the data were processed

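RNA of lung tissue from 3 fetal and 3 neonatal piglets was sequenced from strand-specific, Ribo-Zero-treated libraries. The deposited FPKM were computed by the authors with Cufflinks 2.2.1 after TopHat 2.1.0 mapping to the Sscrofa10.2 genome, and all 14579 mRNAs of the table had FPKM above 0.5 in at least 1 sample. The table of lncRNAs was not used. All value columns were matched to samples by name.

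Identifiers were paired with symbols through an Ensembl-based name table (9478 of 14579 rows). The members and gene lists were chosen with earlier results of these data known. Values were fitted as log2(FPKM + 1) over all mRNAs with limma 3.58.1 in R 4.3.3, letting the prior variance follow the mean, with Benjamini-Hochberg adjustment over the whole table. The study's own Cuffdiff test needs reads and was not repeated. The fit was also run on simulated data with independent noise for each value. Those data held no shift shared by many genes of a sample, so that run cannot speak to such shifts. Depth per value was unknown, so precision rests on the spread between 3 piglets per group.

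Genes were named by a rule: all regulators, members past the threshold, the largest rise and fall and the highest and lowest level of each class, members listed at 0, and partner genes past the threshold. Other members were named after their values were seen, mostly for non-overlapping groups or as the rest of the import genes. Alternatives were pseudocounts of 0.5 and 0.1, a fit without the variance trend, a block for the replicate number, quantile normalization, median-of-ratios scaling, a filter that asked for FPKM above 1 in 3 samples or more, and each sample left out. Summaries and plots used Python 3.11.15, numpy 2.4.6, pandas 2.3.3 and matplotlib 3.10.9.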

Additional observations from a re-analysis of the deposited data

How the results depend on the processing

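Among mitochondrial ribosome genes, 0 were called in either direction under every alternative with all 6 samples, and 0 to 3 were called higher when 1 sample was left out (3 without Neonatal1). Import genes called higher went from 1 to 0 with the replicate block, ranged from 0 to 1 with 1 sample left out, and 1 was called lower under quantile normalization (TOMM20). For the block, TOMM40 had an adjusted p of 0.0549. Replicate numbers did not pair the samples: deviations of same-numbered samples correlated at -0.0407, -0.0043 and 0.00047, 0 of 6 samples correlated best with their own number, and the block lowered the calls over all mRNAs from 1001 to 401. These were 196 to 397 without a fetal sample, and 944, 255 and 308 without Neonatal1, Neonatal2 and Neonatal3. With the block, SIRT3 (adjusted p = 0.0928) and MTRFR (0.0747) also lost their call, and MTFR2 kept it (0.0142). SIRT3 lost it with a pseudocount of 0.1 (0.0504). For regulators, 0 were called under all alternatives.

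The median log2(FC) of the ribosome genes was 0.12 under median-of-ratios scaling and 0.068 under quantile normalization, and 0.18 to 0.42 with 1 sample left out. The median of the regulators was 0.18 with the filter, -0.13 under median-of-ratios scaling, -0.12 under quantile normalization, and -0.079 to 0.10 with 1 sample left out. Of 43 named genes, 35 kept their sign under all alternatives. MRPL22 was at -0.13 and -0.35, and TIMM8B at -0.15 and -0.41, under median-of-ratios and quantile scaling. Under the same scalings TOMM7 was at -0.11 and -0.30 and TIMM29 at -0.053 and -0.028, while TOMM22 was at -0.13 under quantile scaling. With 1 sample left out MRPL22 ranged from -0.033 to 0.12, TIMM8B from -0.18 to 0.22, TFB1M from -0.079 to 0.10, TOMM7 from -0.40 to 0.56, TIMM29 from -0.041 to 0.17, MRPS18A from -0.41 to 0.17 and TOMM20L from -0.25 to 0.30, and TOMM20L was at 0.45 with a pseudocount of 0.1. The filter left out 3 low members. The cause of these shifts was not tested. A planned comparison of promoter motifs was not run because no promoter sequence was used here.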

Other observations

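TWNK and MRPL43 are next to each other in the Sscrofa11.1 annotation of RefSeq, and both were measured. MRPL43 read 8.30, 5.73 and 7.61 FPKM in the fetal and 8.78, 9.58 and 6.94 FPKM in the neonatal samples, a log2(FC) of 0.20 (adjusted p = 0.583), beside -0.51 (adjusted p = 0.289) for TWNK. MRPL43 was chosen here after its values were seen.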
